A study of Mus musculus with 26 samples.

Results

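The genes described here encode the nuclear subunits of the mitochondrial respiratory chain and of ATP synthase, measured on 26 microarrays of mouse embryonic stem cells and epiblast-like cells. They were taken by gene symbol: every gene named Ndufa, Ndufb, Ndufc, Ndufs or Ndufv with a digit, Sdha to Sdhd, Uqcr with a suffix, Cyc1, Cox4 to Cox8 with a suffix, or Atp5 with a suffix. The rule used no measured difference, and it found 82 of the 18193 genes on the array. Complex I had 33 of them, complex II 4, complex III 9, complex IV 19 and complex V 17, with Ndufa4 and its relative Ndufa4l2 counted in complex IV because NDUFA4 is a subunit of cytochrome c oxidase. A further 7 symbols of the family, Ndufs6 and Ndufa11 among them, were found only on probe sets shared with other symbols and have no value here.

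Complex I oxidises NADH and complex II oxidises succinate, and both pass electrons to ubiquinone. Complex III hands them on to cytochrome c, complex IV gives them to oxygen, and complex V uses the resulting proton gradient to make ATP. Naive mouse stem cells respire actively, whereas primed cells of the epiblast rely more on glycolysis. Several subunits of complexes IV and V are encoded by more than 1 gene, and some of these isoforms are best known from testis, heart or muscle.

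All cells were male and of the C57BL/6 strain, and each of the 13 groups had 2 arrays. Wild-type cells, Prdm14(-/-) cells and Prdm14(-/-) cells with a transgene for Avitag-EGFP-Prdm14 driven from pPyCAG (called AGP14) were grown on embryonic fibroblast feeders. The medium was 2i (N2B27 with the MEK inhibitor PD0325901 at 0.4 uM, the GSK3 inhibitor CHIR99021 at 3 uM and LIF at 1000 units per ml), serum (20% FBS with LIF at 1000 units per ml, for 2 days) or the same serum medium without LIF. Wild-type and Prdm14(-/-) cells were also grown in serum with LIF and PD0325901 at 0.4 uM (serum with MEK inhibitor). Cells induced towards the epiblast (EpiLC, sampled on day 2 or day 3) carried intact Prdm14 and a Blimp1-mVenus, Stella-ECFP transgene, and their medium is not given in the labels. Whether the arrays of a group came from separate cultures is not stated, so the p-values rest on a spread between arrays that may be only technical.

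Levels are log2 signals as deposited. The log base is taken to be 2, because the highest value was 13.89, above what base 10 or natural logs of raw scanner readings give; the labels do not state it. A difference is called where its adjusted p was under 0.05 in a limma model of all 26 arrays, adjusted by Benjamini-Hochberg over all 18193 genes. Beside counts of members called lower and higher, the shares of all genes called lower and higher are given.

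The level of the spiked lys control split the arrays. It lay between 13.4 and 13.5 on 12 arrays (wild type and knockout in 2i and in serum with MEK inhibitor, and both EpiLC groups) and between 6.86 and 7.44 on the other 14. The difference between 3' and 5' Gapdh probe sets also parted them, at -0.23 to -0.16 and -0.03 to 0.05. Comparisons within 1 spike-in level are therefore given first; across levels, the groups and the spike-in level cannot be told apart. The Prdm14 probe set went against the labels in 2i, where it read 9.18 on average in wild type and 11.3 on the arrays labelled knockout, and with MEK inhibitor, where it read 9.26 and 10.7 (position relative to the deletion not given in the sources used here), so genotypes below are those of the labels. Naive pluripotency markers averaged 11.4 in wild type in 2i and 7.26 in EpiLC day 2, and epiblast markers 6.70 and 10.4. Of 25 feeder fibroblast markers 24 were measured, and their mean was 8.79 to 9.26 in 2i, 8.13 to 8.32 in serum with MEK inhibitor, 7.03 to 7.75 in serum with or without LIF and 5.73 to 5.99 in EpiLC. In EpiLC 5 or 6 of these markers were under 4, Col1a1, Col3a1 and Postn among them. In these bulk samples fewer cells of a type and less RNA per cell cannot be told apart.

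Most respiratory chain genes gave a strong signal on every array, with little movement between groups. For 69 of the 82 the mean over all arrays was above 10, and the median of these means was 11.4, against 6.21 for all genes. Between the highest and the lowest group mean, 74 members ranged over less than 1 log2 unit, and 36 over less than 0.5. The median range was 0.54 for the members and 1.17 for all genes, which were mostly dimmer. Genes of like level were not compared for range. By complex it was 0.50 in I, 0.67 in II, 0.64 in III, 0.62 in IV and 0.49 in V. The 3 members that ranged over more than 2 were isoforms of complex IV: Cox7b2 (3.81), Cox6b2 (2.65) and Cox7a1 (2.35). Another 5 ranged over 1 to 2, namely Ndufb1 (1.68), Ndufb4 (1.34), Sdhc (1.14), Cox7c (1.07) and Cox6a2 (1.02). Of the 82, 6 had a mean below 6, and the probe set for Ndufb4, at 3.18, was the dimmest. The other probe sets of Ndufb4 are shared with other symbols and were not used. Arrays of 1 group were far apart for Ndufb4 (3.47 and 2.54 in knockout with MEK inhibitor). The same held for Cox7c (7.07 and 7.76 in wild type in serum). Much of their range may thus be spread between arrays.

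**Figure D1:**
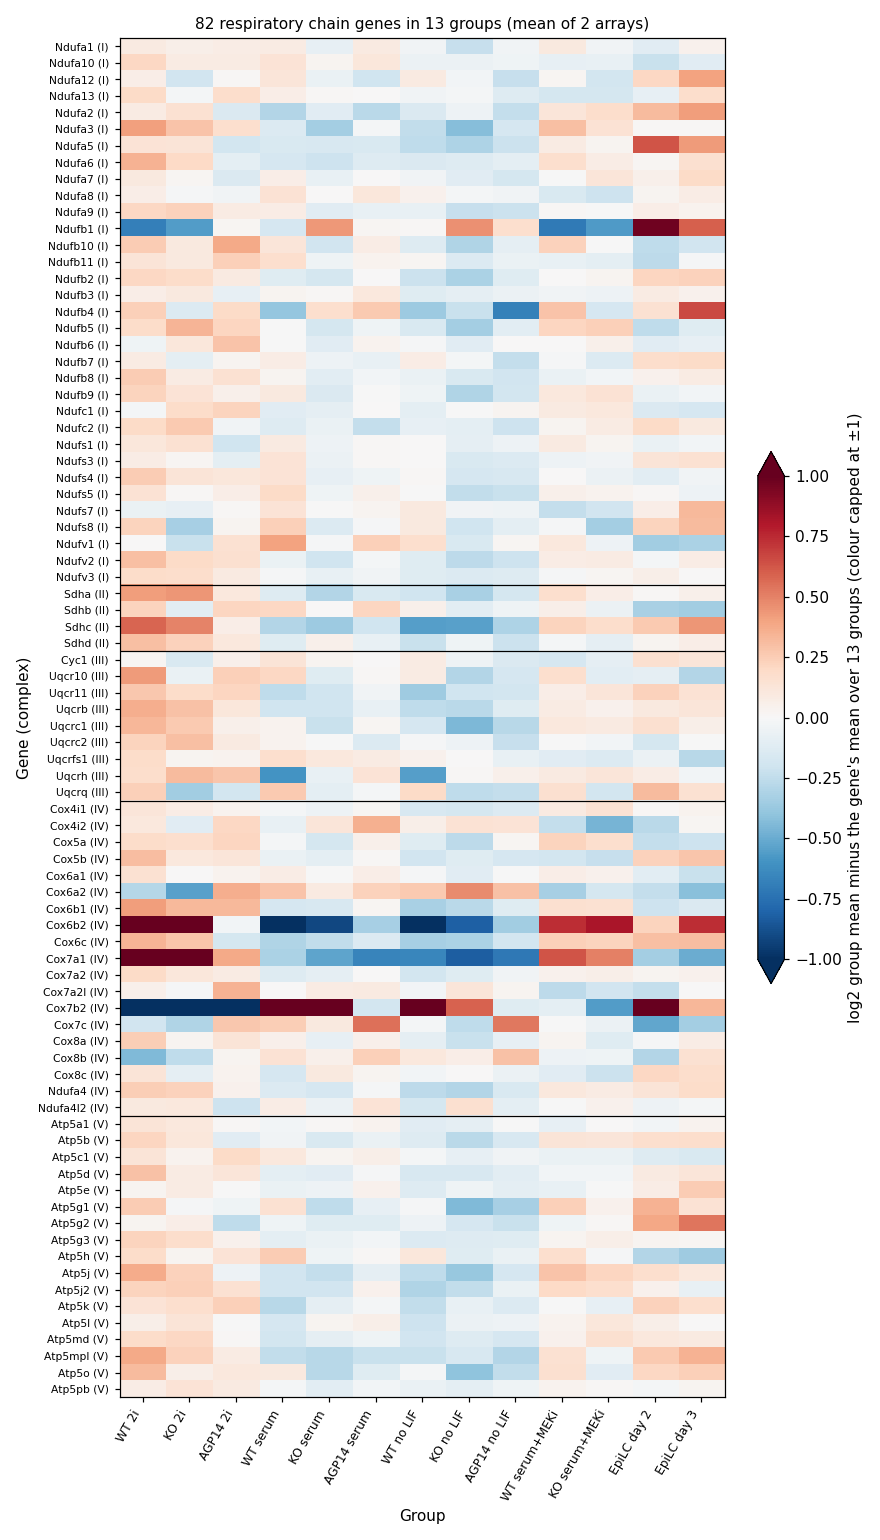
Heat map of 82 respiratory chain genes (rows, by complex) in 13 groups (columns); colour is the log2 group mean of 2 arrays minus the gene's mean over the groups, capped at 1 in either direction. The strongest colours are in the rows of Cox6b2, Cox7a1 and Cox7b2, and the 2i columns are mostly red.

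The members' highest group mean was most often in 2i and their lowest most often without LIF. Wild type in 2i was the highest group for 31 members and knockout in 2i for 13. Knockout without LIF was the lowest for 26 and wild type without LIF for 15. The medians by complex show the same order for complex II, where the 2 arrays of wild type in 2i read 11.14 and 11.09, those of knockout in 2i 11.02 and 11.09, and those of the 3 groups without LIF 10.51 to 10.61. In complex IV AGP14 in 2i had the highest median of the 13 groups, with 12.03 and 12.05 on its arrays, while wild type in 2i (11.88 and 11.95) overlapped with wild type in serum (11.80 and 11.91).

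**Figure D2:**
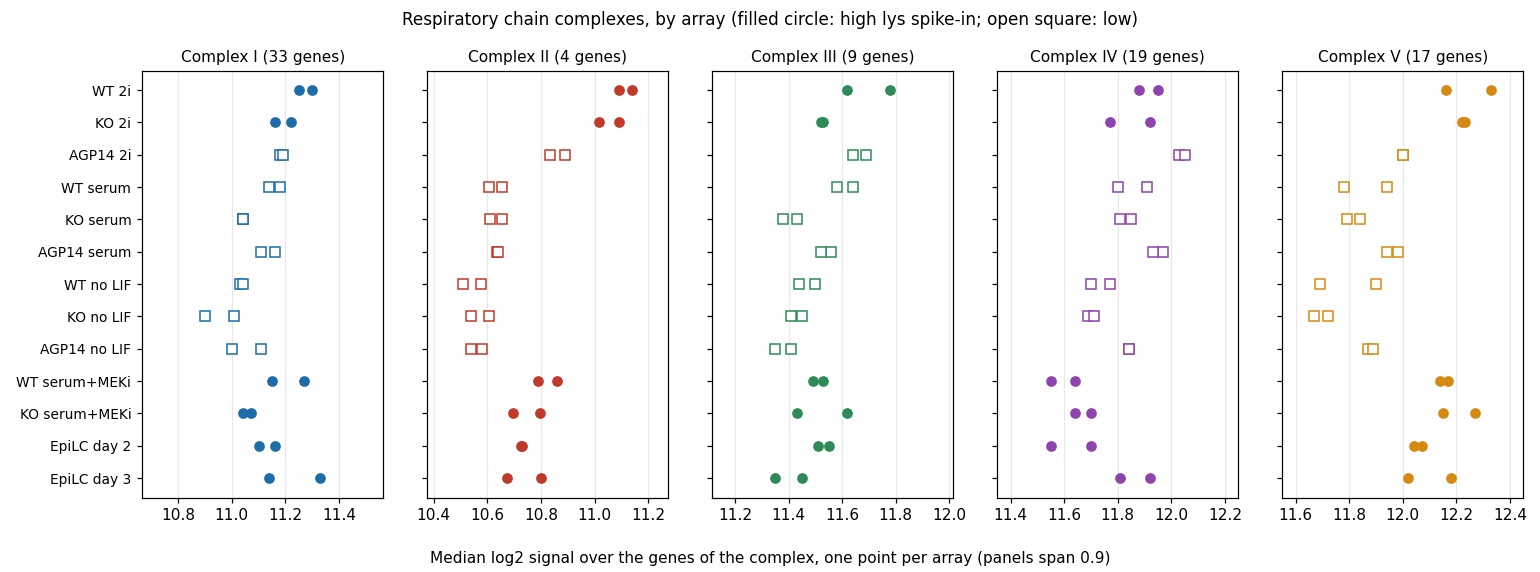
Median log2 signal over the genes of each complex (x axis, 1 panel per complex) on each of the 2 arrays of 13 groups (y axis); filled circles mark arrays of high lys spike-in and open squares those of low. Complex II medians are highest in wild type and knockout in 2i.

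The first question is what happened to the respiratory chain when cells left 2i. With like spike-in levels, 3 comparisons share no arrays: serum against 2i in AGP14 cells, and serum with MEK inhibitor against 2i in wild type and in knockout (the last pair was added once the spike-in levels had been seen). Many more members fell than rose, among them 3 of the 4 subunits of complex II, the succinate dehydrogenase, each time. In AGP14 cells 18 members fell and 1 rose, against 8.22% of all genes called lower and 9.97% higher. In wild type 25 fell and none rose (7.06% and 5.45% of all genes), and in knockout 11 fell and 1 rose (6.59% and 6.61%). The median difference of the members was -0.08, -0.14 and -0.11, against 0.01, -0.02 and 0.01 for all genes. Complex II had the lowest median of the 5 complexes each time, at -0.23, -0.29 and -0.32, but it has 4 genes and the complexes were not tested against each other. The largest falls among members called were of complex IV subunits: Cox7a1 in AGP14 cells and knockout, and Cox5b in wild type. Cox7a1 had the lowest difference in wild type too, at -0.86, but did not pass there. Of 12 naive pluripotency markers 2 were lower and 1 higher in AGP14 cells, none was called in wild type and 2 were lower in knockout, while 3 of 5 core pluripotency markers were higher each time. Of 7 epiblast markers 7 were higher in AGP14 cells, 5 in wild type and 4 in knockout, and none was lower.

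Lower in all 3 comparisons were 7 of the 82 members, and none was higher in all 3; among all genes 487 (2.68%) were lower in all 3. The 7, singled out after their values were seen, were the complex II subunits Sdha, Sdhc and Sdhd, the complex III subunits Uqcrb and Uqcrc2, and the complex I accessory subunits Ndufa9 and Ndufc2. They form 38.9% of the 18 members that fell in AGP14 cells, 28.0% of the 25 in wild type and 63.6% of the 11 in knockout.

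Sdha, the flavoprotein that oxidises succinate, read 11.07 and 10.92 in wild type in 2i against 10.81 and 10.67 in serum with MEK inhibitor, a fall of 0.26 (SE 0.067, adjusted p = 0.016). In knockout it read 10.98 and 11.05 in 2i against 10.62 and 10.67 with MEK inhibitor, a difference of -0.37 (adjusted p = 9.1e-04). In AGP14 cells it read 10.66 and 10.71 in 2i against 10.40 and 10.44 in serum, a difference of -0.27 (adjusted p = 0.0087). The 2i arrays were the higher ones in each genotype, with no overlap. Other probe sets of Sdha did not follow: they gave -0.12 to 0.09 in wild type, 0.08 to 0.33 in knockout and 0.04 to 0.12 in AGP14, and with the mean of all its probe sets the gene was not called in any of the 3.

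Sdhc, a membrane anchor of complex II, read 9.67 and 9.61 in wild type in 2i and 9.25 and 9.30 with MEK inhibitor, a difference of -0.37 (SE 0.080, adjusted p = 0.0047). The difference was -0.32 in knockout (adjusted p = 0.011) and -0.27 in AGP14 cells (adjusted p = 0.023), and its other probe set gave -0.33, -0.23 and -0.24. Sdhd, the other anchor, differed by -0.33 (adjusted p = 0.0019), -0.32 (0.0021) and -0.19 (0.048) in the same order. The other probe set of Sdhd gave -0.06, -0.34 and -0.40. In AGP14 cells both anchors lost their call without any 1 of the 4 arrays. Both anchors read lower outside 2i on every array of the 3 comparisons. Sdhb, the iron-sulfur subunit that links the flavoprotein to the anchors, did not pass in any of them, with -0.16 in wild type, 0.05 in knockout and 0.00 in AGP14 cells. The difference between Sdhb and the other subunits was not tested.

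The complex III subunits Uqcrc2, a core protein, and Uqcrb, which binds ubiquinol, differed by -0.23 and -0.28 in wild type, by -0.33 and -0.25 in knockout and by -0.23 and -0.19 in AGP14 cells. For each, the other probe set had the same sign, at -0.46 to -0.22. Ndufa9, an accessory subunit near the ubiquinone site of complex I, differed by -0.20, -0.23 and -0.16, and Ndufc2, of the membrane arm, by -0.17, -0.18 and -0.20. Outside these 7, Cox5b, a core-associated subunit of complex IV, read 12.61 and 12.58 in wild type in 2i against 12.09 and 12.13 with MEK inhibitor (-0.49, adjusted p = 2.3e-05). It differed by -0.34 in knockout (adjusted p = 6.4e-04) and by -0.11 in AGP14 cells, where it was not called; its other probe sets disagreed, at -1.27 to 1.25 in wild type and -0.35 to 0.27 in knockout, and with their mean it was not called in either.

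The isoforms of complex IV moved most, and in opposite directions. Cox7a1, known from heart and muscle, read 7.48 and 7.74 in AGP14 cells in 2i and 6.50 and 6.65 in serum (-1.04, SE 0.29, adjusted p = 0.018). In knockout the arrays were spread, at 8.35 and 9.16 in 2i and 7.16 and 8.32 with MEK inhibitor, for a difference of -1.02 (adjusted p = 0.027), and in wild type -0.86 did not pass. Cox7b2, known from testis, was the member that rose: from 4.14 and 3.50 to 5.80 and 5.32 in AGP14 cells (1.74, SE 0.48, adjusted p = 0.015) and from 3.83 and 3.14 to 5.49 and 4.88 in knockout (1.70, adjusted p = 0.023). In wild type its arrays overlapped (5.35 and 3.82 against 6.37 and 4.93) and the difference of 1.07 did not pass. The array medians over all probe sets were 4.86 to 5.01, so most of these 2i values lay below them. In AGP14 cells neither Cox7a1 nor Cox7b2 passed without 2i array 2 or without serum array 1, and in knockout neither passed without 2i array 2 or without MEK inhibitor array 1. Cox6b2, the testis form of Cox6b1, differed by -0.30, -0.43 and -0.51 in AGP14, wild type and knockout and passed only in knockout (adjusted p = 0.046), while Cox6b1 itself differed by -0.30 (adjusted p = 0.0039), -0.26 (0.015) and -0.17 (not called).

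**Figure D3:**
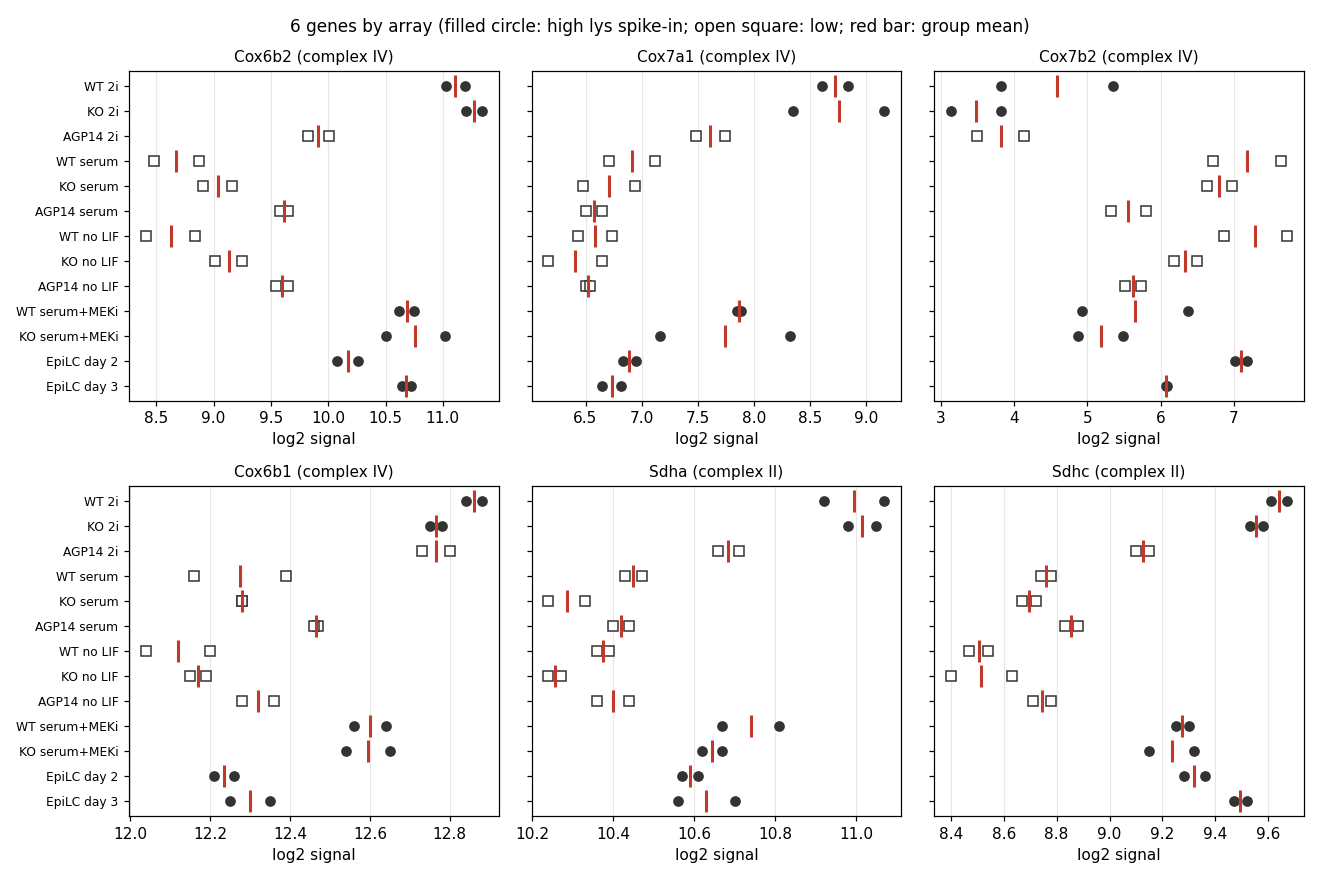
Log2 signal (x axis) of 3 isoforms of complex IV (Cox6b2, Cox7a1, Cox7b2), of Cox6b1 and of the complex II subunits Sdha and Sdhc on both arrays of 13 groups (y axis); the red bar is the group mean, filled circles are arrays of high lys spike-in and open squares of low. Cox7b2 is lowest in the 2i groups, and Cox7a1, Sdha and Sdhc are highest in wild type and knockout in 2i.

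Cox7a2, the widely expressed form of Cox7a1, differed by -0.09 in AGP14 cells, and its group means over the whole series spanned 0.38. Cox7a2l, a factor for the joining of complexes III and IV, differed by -0.26 in AGP14 cells (adjusted p = 0.0063) and by -0.32 in wild type (adjusted p = 0.0020). The other tissue isoforms, Cox4i2, Cox6a2, Cox8b, Cox8c and Ndufa4l2, had means over all arrays of 4.84 to 7.31 and did not pass in any of these 3 comparisons. In complex V, the 3 genes for subunit c (Atp5g1, Atp5g2 and Atp5g3) passed only once, Atp5g3 in wild type (-0.19, adjusted p = 0.014).

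The counts rest on few arrays. Leaving out 1 array at a time left 1 to 13 members called in AGP14 cells (1 without 2i array 2, 4 and 8 without serum arrays 1 and 2), 15 to 18 in wild type (15 without MEK inhibitor array 1, 17 without either 2i array) and 5 to 16 in knockout (5 without MEK inhibitor array 1, 6 without 2i array 2). With arrays centred on their own median, 9 members were called in wild type, all lower. Feeder marker means moved along, from 9.26 to 8.32 in wild type, 9.19 to 8.13 in knockout and 8.79 to 7.57 in AGP14 cells; their part in the results was not tested.

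Promoters are shown for some of the members that moved together or apart on leaving 2i. Each line gives the 250 bases before the gene's start (RefSeq, GRCm38.p6), 5' to 3' on the gene's strand, with capitals for matches on either strand to 4 motifs: the NRF1 motif (GCGCA and GCGC with any 1 base between them), the ETS motif CCGGAAG, the YY1 motif AAGATGGC and the TATA motif TATAAA. Sdha and Sdhd, the flavoprotein and an anchor of complex II, were called lower in all 3 comparisons by their brightest probe sets. Other probe sets of Sdha did not follow, and Sdhb of the same complex was not called. Cox6b1 is the common isoform whose partner is Cox6b2. Cox7a1 and Cox7b2 moved in opposite directions.
Sdha (chr13:74350241-74350490, minus strand): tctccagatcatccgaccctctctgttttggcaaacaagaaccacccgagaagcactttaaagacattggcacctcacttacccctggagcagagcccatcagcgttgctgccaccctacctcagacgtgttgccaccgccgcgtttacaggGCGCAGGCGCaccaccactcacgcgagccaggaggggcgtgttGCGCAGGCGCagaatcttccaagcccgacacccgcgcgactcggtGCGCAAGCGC
Sdhd (chr9:50603850-50604099, minus strand): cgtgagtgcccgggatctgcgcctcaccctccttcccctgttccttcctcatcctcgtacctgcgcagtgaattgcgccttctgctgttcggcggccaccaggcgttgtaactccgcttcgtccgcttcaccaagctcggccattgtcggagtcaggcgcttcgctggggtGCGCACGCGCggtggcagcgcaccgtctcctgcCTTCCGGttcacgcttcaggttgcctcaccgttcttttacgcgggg
Cox6b1 (chr7:30626115-30626364, minus strand): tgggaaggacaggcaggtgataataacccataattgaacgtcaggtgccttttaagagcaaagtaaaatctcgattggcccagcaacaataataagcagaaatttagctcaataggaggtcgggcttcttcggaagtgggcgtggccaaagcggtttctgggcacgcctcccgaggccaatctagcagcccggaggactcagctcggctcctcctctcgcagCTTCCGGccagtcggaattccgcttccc
Cox7a1 (chr7:30183921-30184170, plus strand): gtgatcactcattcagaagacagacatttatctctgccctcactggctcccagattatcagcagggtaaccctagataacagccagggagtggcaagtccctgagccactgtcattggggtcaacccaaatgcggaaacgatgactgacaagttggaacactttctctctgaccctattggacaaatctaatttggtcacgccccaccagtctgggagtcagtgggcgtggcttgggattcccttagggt
Cox7b2 (chr5:71548206-71548455, minus strand): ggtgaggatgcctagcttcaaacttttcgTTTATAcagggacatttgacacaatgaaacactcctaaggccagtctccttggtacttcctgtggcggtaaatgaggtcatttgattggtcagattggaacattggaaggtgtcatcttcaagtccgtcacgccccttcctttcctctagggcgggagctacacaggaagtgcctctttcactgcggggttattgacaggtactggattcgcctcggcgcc
In Sdha 3 matches to the NRF1 motif began 98, 55 and 10 bases before the start. Sdhd had an NRF1 match 79 bases and an ETS match 46 bases before it, and Cox6b1 an ETS match 28 bases before it. Cox7b2 had a TATA match 221 bases before the start, and Cox7a1 had none of the 4 motifs in this window. No matches overlapped.

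A promoter was listed for 66 of the 82 members, and Sdhc, Uqcrb, Uqcrc2 and Uqcrq were among those not listed. Ndufa9 and Ndufc2, which fell in the same comparisons as Sdha and Sdhd, had a listed promoter without any of these motifs. The NRF1 motif was present in 10 of the 66 (15.2%), against 3.86% of all 27025 promoters, and the ETS motif in 11 (16.7%), against 7.05%. The TATA motif was in 7 (10.61%), against 12.97%, and the YY1 motif in none, against 1.59%. A match describes the letters only.

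In EpiLC day 2, 36 members were lower and 5 higher than in wild type in 2i (21.1% of all genes called lower and 17.2% higher), and both groups had the high spike-in level. The EpiLC carried the Blimp1-mVenus, Stella-ECFP transgene and their medium is not given. Cell line, medium and cell state therefore cannot be told apart in this comparison. All 4 subunits of complex II were among the falls, with 14 of 33 in complex I, 5 of 9 in III, 7 of 19 in IV and 6 of 17 in V. The median difference over the members was -0.15, against -0.02 for all genes. Cox7a1 fell most, from 8.61 and 8.84 to 6.83 and 6.95 (-1.84, SE 0.29, adjusted p = 5.2e-05). Cox6b2 went from 11.03 and 11.19 to 10.08 and 10.26 (-0.94, adjusted p = 1.2e-04).

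Cox6b1 fell from 12.84 and 12.88 to 12.26 and 12.21, a difference of -0.63 (SE 0.068, adjusted p = 5.2e-07). The arrays of the 2 groups were far apart relative to their spread. Sdhb, which did not pass in the comparisons above, read 11.45 and 11.38 in 2i and 10.89 and 10.84 in EpiLC (-0.55, adjusted p = 5.3e-06). Sdha differed by -0.41 (adjusted p = 7.1e-05), Sdhc by -0.32 (adjusted p = 0.0034) and Sdhd by -0.28 (adjusted p = 0.0016). Ndufb10, an accessory subunit of the complex I membrane arm (adjusted p = 5.4e-05), and Uqcr10, a small subunit of complex III (adjusted p = 0.0011), both differed by -0.52.

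The 5 members that rose in EpiLC came from complexes I, IV and V. Cox7b2 went from 5.35 and 3.82 to 7.01 and 7.18 (2.51, SE 0.48, adjusted p = 3.0e-04). Ndufb1, a small accessory subunit of complex I, went from 4.94 and 4.97 to 6.43 and 6.79 (1.66, SE 0.21, adjusted p = 4.8e-06). Ndufa5, of the matrix arm of complex I, rose by 0.50 (adjusted p = 9.8e-05), and its other probe set gave 0.56. Atp5g2, for subunit c of ATP synthase, rose by 0.37 (adjusted p = 1.8e-04), and Ndufa2, also of complex I, by 0.24 (adjusted p = 0.0040). Of the other genes for subunit c, Atp5g3 fell by 0.19 (adjusted p = 0.0040) and Atp5g1 differed by 0.10 and was not called, although its other probe set gave 1.26.

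Among genes that serve the chain, 29 of 76 proteins of the mitochondrial ribosome were higher in EpiLC day 2 than in 2i and 8 were lower. Of 14 complex I assembly factors 4 were higher and 1 lower, and of 28 factors for complexes II to V 4 were higher and 7 lower. Of 12 TCA cycle enzymes 2 were higher and 5 lower, and of 17 biogenesis regulators 6 were higher and 1 lower. Of 16 genes for electron carriers and ATP export 3 were higher and 3 lower. Of 46 cytosolic ribosomal proteins 4 were higher and 1 lower. When each array was centred on its median, which moved the median of all genes from -0.02 to 0.11, the split of the members became 20 lower and 10 higher, and with quantile normalization 30 lower and 8 higher. Feeder marker means were 9.26 in 2i and 5.73 in EpiLC, and their part was not tested.

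From day 2 to day 3 of EpiLC, 7 members rose and 1 fell (7.89% of all genes called higher and 9.69% lower). Cox6b2 went from 10.08 and 10.26 to 10.64 and 10.72 (0.51, SE 0.16, adjusted p = 0.037). Ndufa13 and Ndufs7 of complex I each rose by 0.26 (adjusted p = 0.011 and 0.017), Ndufb11 by 0.25 (adjusted p = 0.029), Cox7a2l by 0.24 (adjusted p = 0.011), Uqcrc2 by 0.17 and Ndufa1 by 0.16, while Uqcrfs1, the Rieske iron-sulfur protein of complex III, fell by 0.22 (adjusted p = 0.011). Cox7b2 read 7.01 and 7.18 on day 2 and 6.09 and 6.07 on day 3, a difference of -1.02 that did not pass. The count was 2 to 6 without 1 array (2 without day 2 array 2, 4 without day 2 array 1 or day 3 array 2), and with arrays centred on their median 11 rose and none fell.

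**Figure D4:**
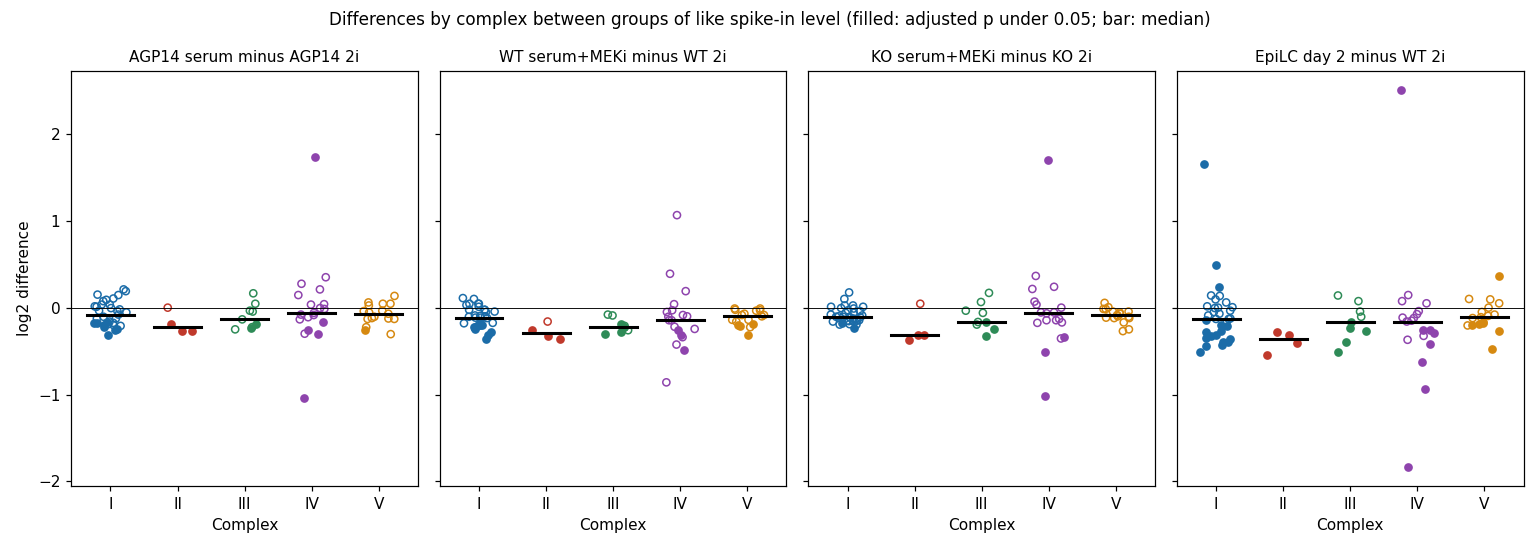
Log2 difference (y axis) of each respiratory chain gene by complex (x axis) in 4 comparisons of groups with like spike-in level; filled points passed the limit and black bars are medians. Complex II medians lie lowest in every panel, from -0.36 to -0.23.

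The next question is whether the respiratory chain differed between knockout and wild type in the same medium, each pair of groups being at 1 spike-in level. Few members did, nearly all of them lower on the arrays labelled knockout: 7 lower and 1 higher in 2i (5.52% of all genes called lower and 3.63% higher), 10 lower and 1 higher in serum (2.79% and 1.39%), 7 lower without LIF (2.44% and 1.75%) and 1 lower with MEK inhibitor (2.22% and 1.86%). Complex I, with 33 of the 82 members, held 7 of the 10 falls in serum, 5 of the 7 without LIF and 2 of the 7 in 2i. The members' median difference was -0.08, -0.08, -0.06 and -0.02, against -0.03, -0.02, -0.01 and -0.01 for all genes. In the same order of media it was -0.11, -0.11, -0.10 and 0.01 for 76 mitochondrial ribosome genes. For 17 biogenesis regulators it was -0.08, -0.155, -0.16 and -0.085. For 28 assembly factors of complexes II to V it was -0.09, -0.17, -0.14 and -0.01. Among 46 cytosolic ribosomal proteins it was -0.045, -0.015, -0.01 and 0.02. Members and these lists were not tested against each other. With arrays centred on their median, the members' median was 0.01 in 2i and 0.00 with MEK inhibitor, so its sign did not hold there, and the split of calls became 3 lower and 3 higher in 2i and 3 lower and 1 higher in serum. With quantile normalization it was 5 lower and 2 higher without LIF.

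Ndufs8, an iron-sulfur subunit in the electron path of complex I, was called lower in all 4 media. It read 11.30 and 11.13 in wild type in 2i and 10.68 and 10.64 in knockout (-0.56, SE 0.075, adjusted p = 1.0e-04), and 11.31 and 11.14 against 10.85 and 10.86 in serum (-0.37, adjusted p = 0.0087). Without LIF its mean was 11.09 ± 0.13 (SD, n = 2) in wild type, and it read 10.80 and 10.79 in knockout (-0.30, limma adjusted p = 0.031); with MEK inhibitor it read 11.05 and 10.90 against 10.66 and 10.64 (-0.33, adjusted p = 0.017). Every wild-type array was above every knockout array of its medium, and the other probe sets of the gene ranged from -0.67 to -0.23. Among all genes 81 (0.445%) were lower in all 4 media. Wild-type array 1 read above array 2 for Ndufs8 in all 4 media. The same order was seen for 14 of the 82 members, Atp5g1 among them, and the reverse order for 20. The labels do not pair arrays by number. Deviations of same-numbered arrays from their group means nevertheless correlated between media, at 0.106 to 0.216 in wild type and 0.099 to 0.20 in knockout. Between wild type and knockout the correlations were -0.0605 to 0.0208. The 4 media therefore cannot be counted as 4 independent observations. In 2i the call held without any of the 4 arrays; in serum and with MEK inhibitor it was lost without either knockout array or without wild-type array 1, and without LIF likewise.

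Ndufv1, the subunit that binds NADH and flavin, passed in 3 media. It read 11.48 and 11.53 in wild type in serum and 11.04 and 11.15 in knockout (-0.41, SE 0.062, adjusted p = 0.0011). The difference was -0.32 without LIF (adjusted p = 0.0066), -0.23 in 2i (adjusted p = 0.025) and -0.16 with MEK inhibitor, where it was not called. The call in 2i was lost without either knockout array, without wild-type array 1, with quantile normalization and with median centring, and the call without LIF without knockout array 1 or wild-type array 1. Ndufs8 and Ndufv1 both lie on chromosome 19 with 8 genes between them. Of 15 measured genes around and between them, 2 were called lower in any medium (Gstp1 without LIF and Cdk2ap2 in 2i), none in all 4 and none higher.

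Outside complex I different members were called lower in different media. The group means of Uqcrq, Uqcr10, Sdhb and Atp5g1 were nevertheless lower in knockout in all 4 media. For none of them was the difference called unlike between serum and 2i (limma interaction, adjusted p = 0.59 to 0.69). Cox5b, called lower in 2i, read higher in knockout without LIF (0.075). In 2i the falls called included the small complex III subunits Uqcrq (-0.59, SE 0.12, adjusted p = 0.0052) and Uqcr10 (-0.50, SE 0.11, adjusted p = 0.0083), and Sdhb (-0.33, adjusted p = 0.0072). Uqcrq read 11.70 and 11.26 in wild type and 10.91 and 10.87 in knockout, and Uqcr10 11.78 and 11.41 against 11.11 and 11.09. The call of Sdhb was lost with arrays centred on their median, without knockout array 1 and without wild-type array 1. For Uqcrq and Uqcr10 wild-type array 1 was above array 2 in all 4 media, and without array 1 in 2i neither passed. Another probe set of Uqcrq gave 0.05, whereas those of Uqcr10 gave -0.74 to -0.58.

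In serum and without LIF, Atp5g1, 1 of the genes for subunit c, differed by -0.41 (SE 0.096, adjusted p = 0.023) and -0.43 (adjusted p = 0.015). It read 11.45 and 11.23 in wild type in serum, against a mean of 10.94 ± 0.09 (SD, n = 2) in knockout, so the groups did not overlap, but the call in serum was lost without either knockout array or wild-type array 1, and the call without LIF was lost without knockout array 2 or wild-type array 1. Uqcrc1, a core protein of complex III, read 11.48 and 11.44 in wild type without LIF and 11.19 and 11.17 in knockout (-0.28, SE 0.051, adjusted p = 0.0036). The rises were small: Ndufc1 by 0.20 in 2i (limma adjusted p = 0.0495) and Atp5l, subunit g of ATP synthase, by 0.20 in serum (adjusted p = 0.038). The call of Ndufc1 was lost in 8 of 13 alternatives, the mean of its probe sets among them. That of Atp5l was lost in 6 of 13, quantile normalization among them.

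**Figure D5:**
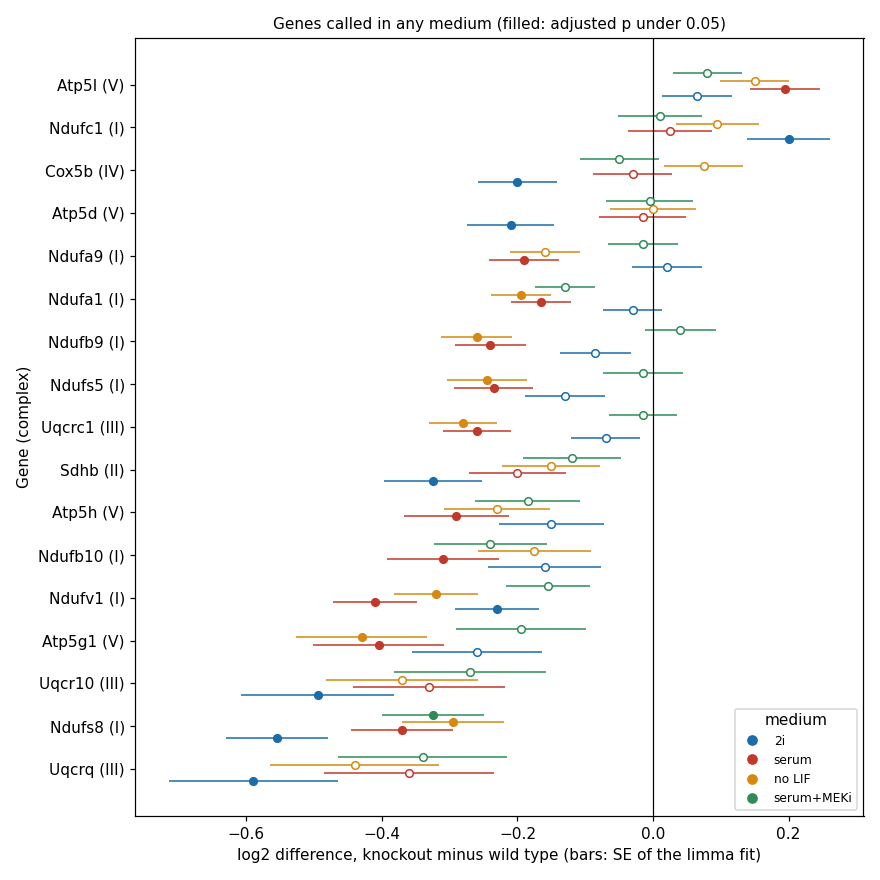
Log2 difference between arrays labelled knockout and wild type (x axis, with SE) for each respiratory chain gene called in any medium (y axis), by medium; filled points passed the limit. Ndufs8 is filled in all 4 media and Ndufv1 in 3.

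Without 1 array the count of called members was 1 to 11 in 2i (1 without wild-type array 1, 3 and 5 without knockout arrays 1 and 2), 2 to 7 in serum (2 without knockout array 2, 3 without knockout array 1 or wild-type array 1, 7 without wild-type array 2), 1 to 10 without LIF (1 without wild-type array 1, 2 and 3 without knockout arrays 1 and 2) and 0 or 1 with MEK inhibitor (0 without either knockout array or wild-type array 1, where 2 to 13 members had an unadjusted p under 0.05). In limma models of the 4 compared arrays alone no member was called in any medium, with 11, 23, 19 and 2 members at an unadjusted p under 0.05. The difference between knockout and wild type was itself tested between serum and 2i, across spike-in levels, and was more negative in serum for 1 member, Ndufb5 (1.62% of all genes called lower and 1.36% higher).

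AGP14 cells were compared with knockout cells to ask how the respiratory chain differed with the Prdm14 transgene. The Prdm14 probe set read 9.205 on average in AGP14 cells in 2i, below the 11.285 of knockout. In serum it read 6.42 and 6.33 in AGP14 cells, within the 5.40 and 6.47 of knockout. Without LIF it averaged 4.99 against 3.63. The transgene is therefore known here from the labels, as are the genotypes. In serum and without LIF, at 1 spike-in level, members were mostly higher in AGP14 cells. In serum 8 were higher and 1 lower (5.23% of all genes called higher and 5.28% lower), and without LIF 4 were higher and 2 lower (8.09% and 5.22%). In serum 68 of the 82 differences were above 0, against 48.2% of all genes and 47.6% of those with a mean above 10, and without LIF 55, against 50.7% and 54.1%. The median was 0.09 in serum and 0.04 without LIF, against -0.01 and 0.01 for all genes. With arrays centred on their median 7 were higher and none lower in serum, and with quantile normalization 5 were higher and 5 lower without LIF.

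Ndufv1 read 11.04 and 11.15 in knockout in serum and 11.36 and 11.33 in AGP14 cells (0.25, SE 0.062, adjusted p = 0.014). Uqcrc1 read 11.43 and 11.38 in knockout and 11.67 and 11.63 in AGP14 cells in serum (0.25, adjusted p = 0.0038), and 11.19 and 11.17 against 11.30 and 11.41 without LIF (0.18, adjusted p = 0.026). Both genes thus read higher with the transgene on both arrays. Ndufs8 did not pass in either medium, with 10.98 on both AGP14 arrays in serum against 10.85 and 10.86 in knockout. In 2i, across spike-in levels, Ndufs8 read 10.97 and 11.07 in AGP14 cells against 10.68 and 10.64 in knockout (0.36, adjusted p = 0.0016), and Ndufv1 was higher by 0.38 (adjusted p = 2.3e-04); there the transgene and the spike-in level cannot be told apart. The knockout arrays serve in both contrasts, so a fall against wild type and a rise in AGP14 cells are not independent.

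Cox5a, a subunit of complex IV, was higher in AGP14 cells in both media. Between knockout and wild type it was not called in either, but the knockout arrays read lower without overlap. They read 12.93 and 12.99 against 13.03 and 13.20 in serum. Without LIF they read 12.85 and 12.89 against 12.96 and 13.07. In AGP14 cells without LIF Cox5a read 13.13 and 13.18 (0.29 above knockout, SE 0.055, adjusted p = 0.0015), and it differed from knockout by 0.23 in serum (adjusted p = 0.010). Cox6b2 differed by 0.58 in serum (adjusted p = 0.028), with 9.65 and 9.58 in AGP14 cells above 8.91 and 9.16 in knockout, and by 0.47 without LIF, where it was not called. Ndufa3 of complex I rose by 0.32 in serum (adjusted p = 0.034), and Ndufc2 fell by 0.17 (adjusted p = 0.046). Without 1 array 1 to 6 members were called in serum (1 without AGP14 array 2, 2 without AGP14 array 1 or knockout array 1, 6 without knockout array 2) and 1 to 5 without LIF (1 without AGP14 array 2, 3 without knockout array 1).

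Withdrawal of LIF for 2 days gave small shifts in 1 direction. Of the 82 members 69 were lower without LIF in wild type, 63 in knockout and 74 in AGP14 cells, against 52.6%, 49.7% and 44.2% of all genes. Most members are strongly expressed, and of the 1918 genes with a mean above 10 the shares were 60.4%, 64.4% and 52.9%. The medians were -0.09, -0.08 and -0.11, against -0.02, 0.00 and 0.03 for all genes and -0.03, -0.04 and -0.01 for genes above 10. For 76 mitochondrial ribosome genes they were -0.075, -0.085 and -0.09, and for 14 complex I assembly factors -0.10, -0.09 and -0.055. For 28 factors for complexes II to V they were -0.125, -0.095 and -0.02. Smaller medians were those of 12 TCA cycle enzymes (-0.015, -0.0425 and -0.0125) and 46 cytosolic ribosomal proteins (-0.0275, -0.03 and -0.0075). For 17 biogenesis regulators they were -0.01, -0.055 and 0.035. Members and lists were not tested against each other. Of the respiratory chain members only Uqcrc1 was called in each genotype, and it was lower. Of all genes 1.17% were called lower and 0.330% higher in wild type, 0.830% and 0.269% in knockout and 0.187% and 0.115% in AGP14 cells, and 12 were lower in all 3.

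Uqcrc1 read 11.66 and 11.67 in wild type in serum and 11.48 and 11.44 without LIF (-0.21, SE 0.051, adjusted p = 0.049). It read 11.43 and 11.38 against 11.19 and 11.17 in knockout (-0.23, adjusted p = 0.034) and 11.67 and 11.63 against 11.30 and 11.41 in AGP14 cells (-0.30, adjusted p = 0.015). The arrays did not overlap in any genotype. The call was lost without any of the 4 arrays in wild type and in knockout, and in AGP14 cells without either serum array or the first array without LIF. In the same comparisons naive pluripotency markers fell in 11 of 12, 9 of 12 and 1 of 12 cases.

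Several comparisons of the design join groups of unlike spike-in level, and their values are given beside those above. Serum against 2i called 38 members lower and 4 higher in wild type (19.4% of all genes called lower and 15.2% higher) and 44 lower and 5 higher in knockout (20.0% and 15.8%). Serum with MEK inhibitor against serum called 14 lower and 26 higher in wild type (11.2% and 14.3%) and 7 lower and 26 higher in knockout (9.56% and 15.0%). AGP14 against knockout in 2i called 19 lower and 9 higher (16.0% and 8.22%); with arrays centred on their median this became 6 lower and 19 higher, and with quantile normalization 15 and 15. With arrays centred on their median the split of serum against 2i in wild type was 27 lower and 7 higher. With quantile normalization that in knockout was 30 lower and 11 higher, and that of MEK inhibitor against serum in knockout 14 lower and 21 higher.

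Values of the same genes across and within spike-in levels are set side by side here. The comparisons also differ in genotype or medium and in marker levels: of 12 naive pluripotency markers 10 fell from 2i to serum in wild type (median -1.44) and 11 in knockout (median -2.05), against 2 in AGP14 cells (median -0.18). Cox6b2 read 11.03 and 11.19 in wild type in 2i and 8.48 and 8.87 in serum, a difference of -2.44 (SE 0.16, adjusted p = 2.7e-09), and differed by -2.24 in knockout. In AGP14 cells, at 1 spike-in level, serum against 2i gave -0.30. Sdhc differed by -0.88 in wild type and -0.86 in knockout across spike-in levels, against -0.27 in AGP14 cells and -0.37 and -0.32 with MEK inhibitor. Cox7b2 differed by 2.60 in wild type and 3.32 in knockout, against 1.74 in AGP14 cells. Spike-in level and medium cannot be told apart in the values of wild type and knockout in serum against 2i.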

How the data were processed

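Total RNA of 26 samples was measured on Affymetrix Mouse430_2 arrays after one-cycle biotin labelling, per the labels' protocols. The deposited values were log2 signals of 45100 probe sets, made by the authors; the background correction and normalization behind them were not given in the sources used here, and base 2 was inferred. The number of arrays limits precision. Of the probe sets 34944 had 1 gene symbol in the platform annotation, 932 several and 9160 none; 64 controls were left out. Each of 18193 genes was represented by its brightest probe set, judged by the mean of the 26 arrays. Groups were compared with limma 3.58.1 in R 4.3.3 (lmFit, contrasts.fit, eBayes with intensity trend, 1 coefficient per group, 13 residual degrees of freedom), with Benjamini-Hochberg adjustment over all genes; the script was tested on simulated data. Other steps used Python 3.11.15, pandas 2.3.3 and numpy 2.4.6. Named with a test were, per comparison, up to 5 members with the largest rise and 5 with the largest fall among those called without overlap of arrays, all alternative isoforms, and Sdha to Sdhd; others, such as Ndufs8 and Ndufv1 where not called, Uqcrb, Uqcrc2, Ndufa9, Ndufc2 and, in EpiLC, Uqcr10, were named after their values were seen. Members and lists were chosen with earlier results of these data known. Alternatives were quantile normalization, median centring, the mean of a gene's probe sets, no x_at or s_at probe sets, leaving out genes with a mean under 6, no trend, the compared arrays alone, replicate blocks and leaving out each array. Motifs were searched on both strands of the 250 bases before the first-listed start.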

Additional observations from a re-analysis of the deposited data

Results flagged for a closer look

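For Ndufb5, an accessory subunit of the complex I membrane arm, the difference between knockout and wild type was itself different in serum and in 2i, by -0.33 on the log2 scale (limma interaction, adjusted p = 0.041). The call was lost in 11 of 17 alternatives. The comparison joins groups of unlike spike-in level, which cannot be told apart from the medium.

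Cox5b, of complex IV, was lower on both arrays labelled knockout than on both of wild type in 2i (-0.20) and higher on both without LIF (0.075); the difference between the media was not tested. Over the 6 pairs of media examined there were 23 such opposite cases, in 11 members, and in 1 of them a difference had been called.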

How the results depend on the processing

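Counts of members called are given here under each alternative that moved them by over 1.5 times; the cause was not tested unless fewer arrays or genes entered the fit. The dependence on single arrays limits these results most, since each group had 2. With arrays centred on their median 4 members were called between knockout and wild type in serum, 3 between AGP14 and knockout without LIF, 9 between MEK inhibitor and 2i in wild type, and on LIF withdrawal 0 in wild type, 0 in knockout and 2 in AGP14 (limma; 7 and 16 members at an unadjusted p under 0.05 beside the counts of 0). In fits of the compared groups alone 0 were called between knockout and wild type in any medium (11, 23, 19 and 2 at an unadjusted p under 0.05), 4 between AGP14 and knockout in serum, 26 between serum and 2i in wild type, 10 and 16 between MEK inhibitor and serum in wild type and knockout, 1 and 0 between MEK inhibitor and 2i (18 unadjusted for the latter), 0, 0 and 2 on LIF withdrawal (10 and 13 unadjusted) and 0 in the interaction (5 unadjusted). Leaving out dim genes gave 13 in knockout against wild type in 2i, 2 with MEK inhibitor, 10 in AGP14 against knockout without LIF, and 2 on LIF withdrawal in wild type and in AGP14. The mean of probe sets, and leaving out x_at and s_at probe sets, each gave 5 in knockout against wild type in 2i and 0 on LIF withdrawal in wild type. Without an intensity trend knockout against wild type gave 4 in 2i, 3 in serum, 2 without LIF and 0 with MEK inhibitor (4 unadjusted), AGP14 against knockout 2 in serum and 3 without LIF, AGP14 serum against 2i 9, wild-type MEK inhibitor against 2i 15, EpiLC day 3 against day 2 4, LIF withdrawal 0 in each genotype (9, 7 and 15 unadjusted) and the interaction 0 (5 unadjusted). Quantile normalization gave 6 in knockout against wild type in serum, 10 in AGP14 against knockout without LIF, 0, 0 and 2 on LIF withdrawal (10 and 5 unadjusted) and 0 in the interaction (8 unadjusted). With the array number as a replicate block 13 members were called in knockout against wild type in 2i, 11 without LIF, 11 in AGP14 against knockout without LIF and 2 on LIF withdrawal in AGP14; with genotype and number as a random replicate block, 11 without LIF in knockout against wild type, 5, 2 and 5 on LIF withdrawal, 13 in EpiLC day 3 against day 2 and 21 in knockout MEK inhibitor against 2i. The labels do not pair arrays by number. With 2 arrays a group each pair of groups gives 1 correlation of deviations between same-numbered arrays, which was 0.106 to 0.216 over 6 pairs of media in wild type and 0.099 to 0.20 in knockout, a hint from the data and not from the design. Between groups of wild type and groups of knockout it was -0.0605 to 0.0208.

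Leaving out 1 array at a time, the counts ranged in knockout against wild type from 1 to 11 in 2i, 2 to 7 in serum, 1 to 10 without LIF and 0 to 1 with MEK inhibitor. In AGP14 against knockout they ranged from 18 to 22 in 2i, 1 to 6 in serum and 1 to 5 without LIF. For serum against 2i they ranged from 35 to 37 in wild type, 35 to 38 in knockout and 1 to 13 in AGP14, and for MEK inhibitor against serum from 19 to 32 and 20 to 35. For MEK inhibitor against 2i they ranged from 15 to 18 and 5 to 16, for EpiLC day 2 against 2i from 36 to 39 and for day 3 against day 2 from 2 to 6. On LIF withdrawal they were 0 to 0 in wild type and knockout and 0 to 1 in AGP14, and in the interaction 0 to 0.

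The sign turned in 5 cases: Uqcrq in knockout against wild type in 2i without x_at and s_at probe sets (0.045), and with the mean of probe sets Atp5g2 in AGP14 against knockout in 2i (0.097) and in knockout serum against 2i (0.052), Ndufs7 in wild-type serum against 2i (-0.0025) and Sdha in knockout MEK inhibitor against 2i (0.033).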
